A study of Homo sapiens with 3 samples.

Results

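Adjacent p63 peaks are p63 binding sites that lay beside a ZNF148 binding site without sharing a base with its peak. They were chosen by the positions of the peaks in both lists: a p63 peak had to overlap no ZNF148 peak and to have its summit within 1000 bp of a ZNF148 summit. Of 21520 p63 peaks on chromosomes 1 to 22 and X, 1122 met this rule, or 5.21% (95% Wilson interval 4.92 to 5.52%), and their nearest ZNF148 peaks were 1087 of 37883. They are set against 4560 shared p63 peaks, which overlapped a ZNF148 peak, and 15838 distant p63 peaks, which overlapped none and had no ZNF148 summit within 1000 bp.

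The lists come from chromatin immunoprecipitation followed by sequencing in untreated FaDu cells, 1 established line from a pharyngeal squamous cell carcinoma. The study held 1 library made with an antibody to ΔNp63α, 1 with an antibody to ZNF148 and 1 input library without antibody, and each antibody has 1 peak list, although the labels speak of DNA from 3 ChIP assays. There are thus no replicate values, no difference below was tested, and the Wilson intervals cover counting error over peaks only. Read depth is unknown from these lists. Positions are hg19, and no gene names are given because an hg19 annotation was not used here.

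ΔNp63α is the main p63 isoform of basal squamous epithelium, a member of the p53 family that binds a response element made of paired short motifs and occupies many enhancers of the keratinocyte programme. ZNF148, also known as ZBP-89, is a Krüppel-type zinc finger factor that binds G-rich DNA and can activate or repress promoters. The title of the series asks whether both proteins act together in head and neck carcinoma. At adjacent sites the peaks of both proteins occupied separate but neighbouring stretches of DNA, whereas at shared sites they had at least 1 base in common.

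The summits of adjacent pairs lay a median of 553.5 bp apart (quartiles 382 and 766). The facing edges of the peaks were separated by a median of 292 bp (121 and 510.5), and the peaks themselves filled the rest, with medians of 238 bp for p63 and 249 bp for ZNF148. In 5 pairs the intervals abutted with a gap of 0 bp, in 132 the gap was at most 50 bp, or 11.8% (10.0 to 13.8%), and in 422 it was at most 200 bp, or 37.6% (34.8 to 40.5%). ZNF148 lay at the higher coordinate in 572 pairs and at the lower in 550, so neither side of p63 prevailed along the chromosome (51.0%, 48.1 to 53.9%). Orientation to genes or motifs was not examined.

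Adjacent peaks were most frequent between 300 and 400 bp and became fewer, though not evenly, at larger distances. Overlap took up nearly every p63 peak whose summits were at most 200 bp apart: above 100 and up to 200 bp there were 9 adjacent and 423 shared peaks. The next 100 bp, up to 300 bp, held similar numbers, with 123 adjacent and 138 shared peaks. In the class up to 400 bp most were adjacent, with 180 against 39 shared, and this was the fullest of the adjacent classes. The following classes of 100 bp, up to 500, 600, 700, 800, 900 and 1000 bp, held 162, 157, 140, 105, 141 and 105 adjacent peaks. Beyond the limit, unshared p63 peaks went on at 88.2 per 100 bp up to 1500 bp, at 69.1 between 2000 and 3000 bp and at 40.6 between 5000 and 10000 bp. The numbers thus showed no sharp edge at the limit of 1000 bp.

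**Figure D1:**
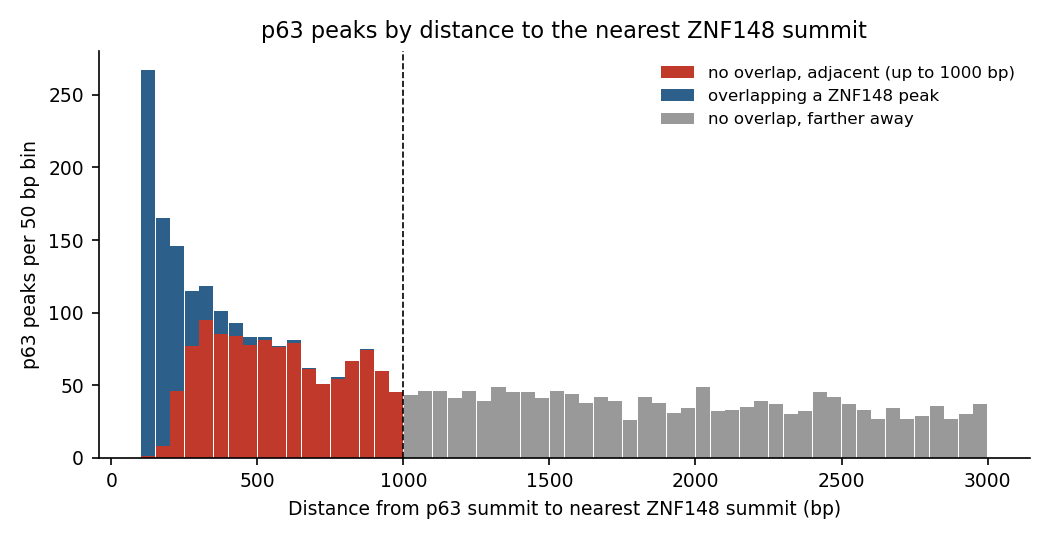
The horizontal axis is the distance in bp from a p63 summit to the nearest ZNF148 summit, starting above 100 bp, and bars give p63 peaks per 50 bp bin (red, adjacent; blue, overlapping a ZNF148 peak; grey, no overlap and farther than the dashed line at 1000 bp). Adjacent peaks replace overlapping ones between 200 and 400 bp, reach 95 per bin just above 300 bp and pass into the grey bars with 45 and 43 per bin on either side of the line.

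In strength, adjacent p63 peaks resembled distant ones and were weaker than shared ones. Their median fold enrichment, the authors' value of a peak over its local background, was 12.4 (quartiles 7.95 and 22.1), against 26.2 (14.1 and 42.0) for shared and 11.7 (7.95 and 19.5) for distant p63 peaks. The median −log10 q was 29.8 for adjacent peaks, against 84.6 for shared and 26.7 for distant peaks. A fold of 10 or more was reached by 683 of 1122 adjacent peaks, or 60.9% (58.0 to 63.7%), against 85.6% of shared, 59.5% of distant and 65.1% of all p63 peaks. Folds under 5 were found in 33 adjacent peaks (2.94%), against 0.943% of shared and 2.34% of distant ones. The ratio of the adjacent to the distant median was 1.07, and it was 0.982 with ZNF148 peaks limited to as many of the most significant as there were p63 peaks, so no direction is given for that small difference. Peak length entered the choice through the overlap: median lengths were 238 bp for adjacent, 283 bp for shared and 225 bp for distant p63 peaks.

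At equal distance, whether 2 peaks overlap is set by how far each reaches from its summit towards the other. Peak length is part of that reach, and the rule used it, so the next values describe that split and are no separate result. Among p63 peaks more than 200 and up to 300 bp from a ZNF148 summit, the 123 adjacent ones had a median p63 fold of 11.9, a ZNF148 fold of 8.64 and a p63 length of 232 bp, while the 138 shared ones had 16.98, 15.2 and 280 bp. In the class up to 400 bp the median p63 and ZNF148 folds were 12.1 and 9.54 for adjacent pairs, against 22.6 and 25.01 for shared pairs. Within the adjacent group, strength did not follow the gap. With the pairs divided by gap into 4 equal groups, from the narrowest (0 to 121 bp) to the widest (511 to 832 bp), the median p63 fold was 12.97, 12.4, 12.2 and 12.3, and the median ZNF148 fold was 9.97, 10.8, 10.4 and 9.97. These differences are small beside the quartiles within each group, such as 7.66 and 24.3 for p63 in the narrowest. By summit distance the ZNF148 median of adjacent pairs varied more. It was 8.64 from 201 to 300 bp, 11.9 from 601 to 700 bp and 9.94 from 901 to 1000 bp.

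**Figure D2:**
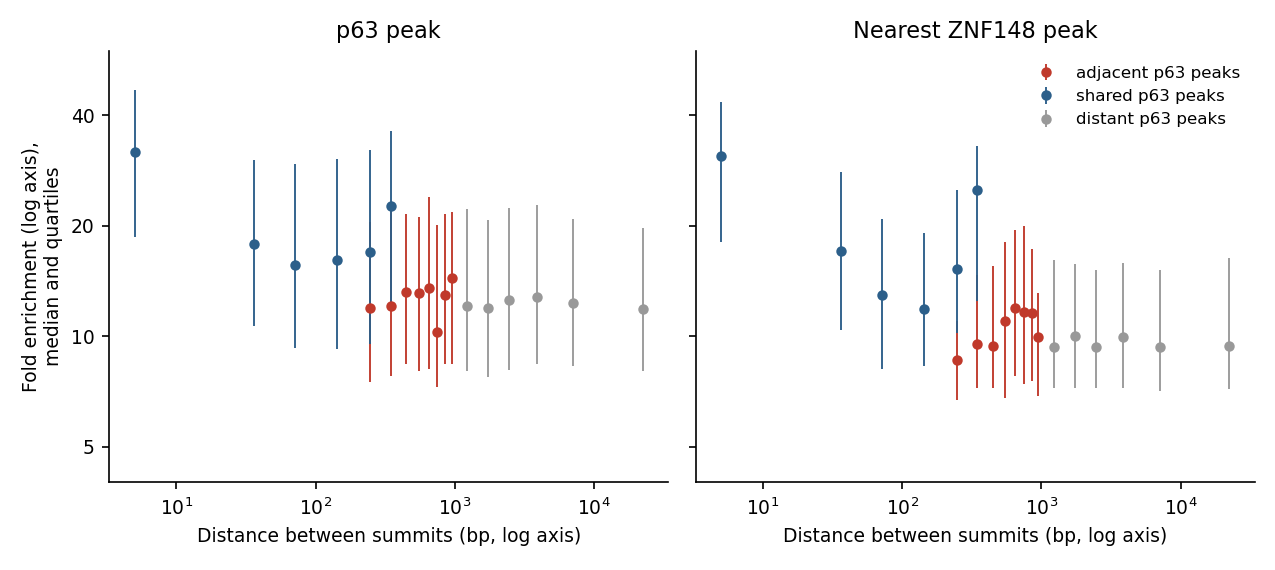
Points give the median fold enrichment with quartiles (log axis) of p63 peaks (left) and of their nearest ZNF148 peaks (right) against the distance between the summits in bp (log axis), for classes of at least 20 peaks. Adjacent pairs (red) sit near folds of 12 and 10, as distant ones (grey) do, while shared pairs (blue) start near 32 and 31 at up to 25 bp. The red ZNF148 medians range from 8.64 (201 to 300 bp) to 11.9 (601 to 700 bp).

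The share of adjacent peaks differed less between ranks of the p63 peak than that of shared peaks, and its direction depended on whether shared peaks were counted in the total. Among the 10% most significant p63 peaks, 86 of 2152 were adjacent, or 3.996% (3.25 to 4.91%), and among the 10% least significant 137, or 6.37% (5.41 to 7.48%). The shared portion was 56.9% in the first of these classes and 8.36% in the last. Of all p63 peaks, fewer were thus adjacent in the top class than in the last. With shared peaks set aside the order was the other way: 9.28% (7.57 to 11.3%) of the unshared p63 peaks in the top class were adjacent, against 5.54% (4.59 to 6.68%) in the sixth class, the lowest, and 6.95% (5.91 to 8.16%) in the last.

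The ZNF148 side of the pairs was also of ordinary strength. The median fold was 10.1 (7.21 and 16.3) over the 1087 nearest ZNF148 peaks, against 23.8 (12.99 and 39.0) for ZNF148 peaks that overlapped a p63 peak, 9.26 (6.88 and 14.3) for ZNF148 peaks of neither kind and 9.83 for the whole list. A fold of 10 or more was found in 562 of them, or 51.7% (48.7 to 54.7%), against 49.6% of all ZNF148 peaks. The strongest was on chromosome 14 at 77474140 to 77474830, with a fold of 103.8 and rank 2 of its list. Its adjacent p63 peak at 77473778 to 77474029 had a fold of 7.66, and the ZNF148 peak overlapped another p63 peak. Several summits in 1 interval were found for 37 of the 1122 neighbours (3.30%), against 3.57% of all ZNF148 peaks.

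The folds of both proteins were unrelated across adjacent pairs. Spearman's rho was −0.07 over the 1122 pairs, against 0.60 over the 4560 shared p63 peaks with their nearest ZNF148 peak and −0.01 over 4561 distant p63 peaks within 10 kb of a ZNF148 summit. These are descriptions over sites of the same pair of libraries, which are not replicates. Both folds were 10 or more in 345 pairs (30.7%), only the p63 fold in 338 (30.1%), only the ZNF148 fold in 238 (21.2%) and neither in 201 (17.9%). Both peaks were in the top 10% of their own lists in 5 adjacent pairs, or 0.446% (0.190 to 1.04%). The same held for 977 of the 4560 shared p63 peaks, or 21.4% (20.3 to 22.6%). Taken singly, 86 adjacent p63 peaks and the ZNF148 neighbours of 90 pairs were in the top 10%. Whether 5 is fewer than these counts would give was not tested.

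**Figure D3:**
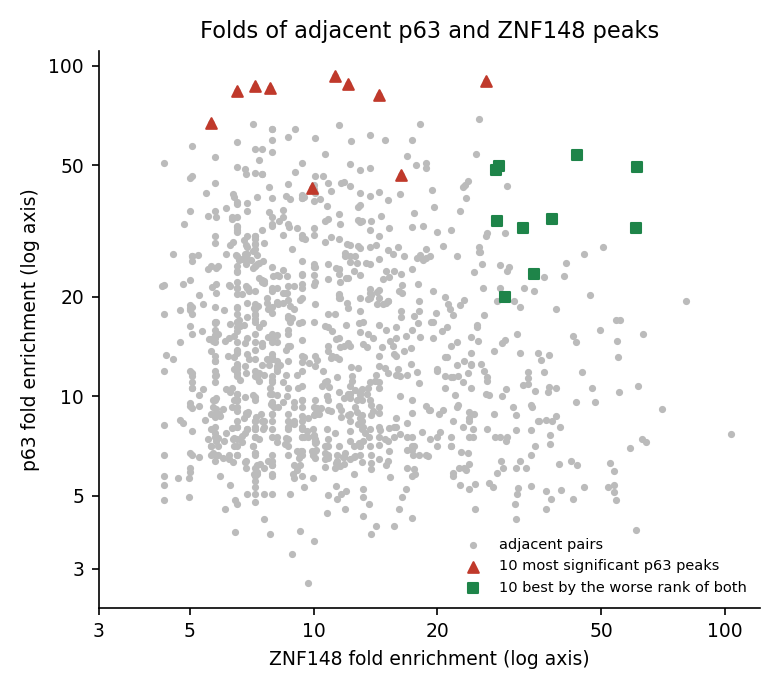
Each point is 1 of the 1122 adjacent pairs, with the ZNF148 fold enrichment on the horizontal and the p63 fold enrichment on the vertical log axis; red triangles are the 10 most significant adjacent p63 peaks and green squares the 10 pairs with the best worse rank of both peaks. The cloud has no slope (rho −0.07), and the 10 red triangles stand at ZNF148 folds from 5.63 to 26.3.

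The 10 most significant adjacent p63 peaks, chosen by their p63 q alone, had ZNF148 neighbours with folds of 5.63 to 26.3, on both sides of the median of 9.83 for the whole ZNF148 list. First was the peak on chromosome 2 at 178034904 to 178035312, with a p63 fold of 92.9 and rank 2 of all p63 peaks. Its ZNF148 neighbour at 178035414 to 178035615 had a fold of 11.3 and rank 16023, and the summits were 410 bp apart. On chromosome 12, the p63 peak at 69202547 to 69202911 had a fold of 88.1 and rank 21, and a ZNF148 peak of fold 12.1 lay at 69201677 to 69201942, across a gap of 604 bp. Chromosome 3 gave a p63 fold of 89.9 at 52087607 to 52088062, where the ZNF148 peak at 52086792 to 52087199 had a fold of 26.3, the highest among these 10 neighbours.

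The other 7 of these 10 had p63 folds of 42.7 to 86.5. Chromosome 2 at 24307086 to 24307452 had 86.5 for p63 and 7.21 for ZNF148, with a gap of 186 bp. The peak on chromosome 16 at 642525 to 642884 had 85.6 and 7.83 at a gap of 87 bp, the closest of the 10. Chromosome 11 at 804234 to 804584 had 83.9 and 6.49, the largest ratio of p63 over ZNF148 fold of all adjacent pairs at 12.9. In each of these 3 pairs the p63 fold was more than 10 times the ZNF148 fold. Folds come from libraries of unknown depth and background, so such ratios rank pairs but do not compare occupancy. Chromosome 3 also held a p63 peak at 37895210 to 37895554 with 81.2 for p63 and 14.4 for ZNF148. Chromosome 22 held the remaining 3, at 45865335 to 45865994 (42.7 and 9.94), 41676058 to 41676436 (66.8 and 5.63) and 43800615 to 43801018 (46.6 and 16.3).

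A different set came up when both peaks had to rank high. The best pair by the worse of its ranks was on chromosome 15, where p63 at 75092111 to 75092506 had a fold of 53.7 and ZNF148 at 75092570 to 75092905 had 43.8, with 63 bp between the edges. A second ZNF148 summit lay within the limit at this site. Next came chromosome 2, with p63 at 156822028 to 156822331 (fold 49.4) and ZNF148 at 156822583 to 156823057 (fold 61.3), across 251 bp. That ZNF148 peak also overlapped another p63 peak of fold 52.5, whose summit was 9 bp from its own. On chromosome 16, p63 at 57653817 to 57654223 had a fold of 32.3 and ZNF148 at 57653345 to 57653717 had 60.8, at a gap of 99 bp; here too another p63 peak, of fold 7.67, lay on the ZNF148 peak.

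The remaining 7 of these 10 pairs had p63 folds of 19.9 to 49.7 and ZNF148 folds of 27.7 to 37.9. On chromosome 22 the pair at 42821690 to 42822014 and 42822163 to 42822523 was evenly matched, with 32.3 for p63 and 32.3 for ZNF148. Another on that chromosome, with p63 at 43522021 to 43522354, had 49.7 and 28.3. Pairs on chromosome 1 (p63 at 64809253 to 64809610, folds 48.3 and 27.7), chromosome 6 (109330080 to 109330376, 34.4 and 37.9) and chromosome 19 (18484625 to 18484934, 23.4 and 34.4) were separated by 149, 244 and 305 bp. Chromosome 8 held pairs with p63 at 128807857 to 128808218 (19.9 and 29.2) and at 68293207 to 68293501 (34.0 and 27.9). The ZNF148 neighbour at 68292777 to 68293066 carried another p63 peak of fold 10.7. No pair of this set was among the 10 most significant adjacent p63 peaks.

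**Figure D4:**
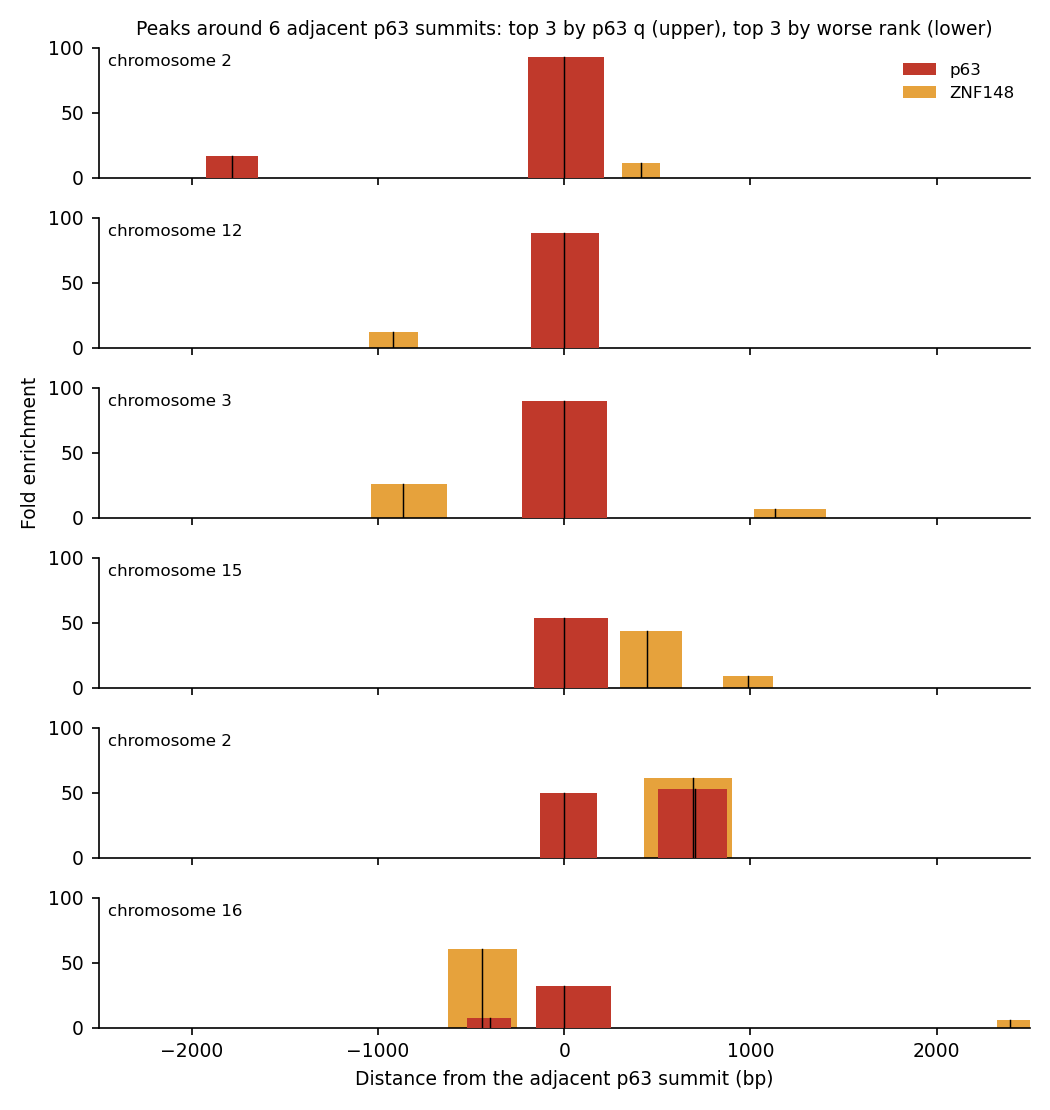
Each row centres on 1 adjacent p63 summit (0 bp) and shows the p63 (red) and ZNF148 (orange) peaks around it to scale, with bar height as fold enrichment and black lines at the summits; the upper 3 rows are the most significant p63 peaks and the lower 3 the best by worse rank. The upper rows pair a p63 fold of 88.1 or more with ZNF148 folds up to 26.3, and in the last 2 rows another p63 peak lies on the ZNF148 neighbour.

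Among pairs with both folds of 10 or more, the extremes ran both ways. After the pairs on chromosomes 2 and 12 already described (ratios of 8.26 and 7.28), the largest p63 over ZNF148 ratio was 5.99, on chromosome 17, where p63 at 41975208 to 41975524 had 60.5 and ZNF148 at 41974980 to 41975203 had 10.1, only 4 bp away. At the other end, p63 on chromosome 10 at 82212889 to 82213115 had 10.7 beside a ZNF148 peak of 61.6, a ratio of 0.175. The next were on chromosome 7 at 129610147 to 129610334 (10.3 and 55.3) and chromosome 17 at 9518934 to 9519149 (10.6 and 47.6), and in both the ZNF148 peak overlapped another p63 peak.

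The tightest strong pairs abutted. On chromosome 2, p63 at 129813830 to 129814132 (fold 41.0) was followed at the next base by ZNF148 at 129814133 to 129814445 (fold 16.3), and the summits were 295 bp apart. On chromosome 3, p63 at 177320680 to 177320974 (14.97) followed ZNF148 at 177320439 to 177320679 (13.96), with summits 259 bp apart. The third, on chromosome 12, had p63 at 77459727 to 77459994 (20.9) and ZNF148 at 77459362 to 77459726 (34.4), with summits 322 bp apart. The smallest summit distance of any adjacent pair was 125 bp, on chromosome 7 at 1760634 to 1760790, between weak peaks of folds 6.62 and 4.33.

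Within the 1000 bp limit most adjacent p63 peaks had a single ZNF148 neighbour, although 88.5% had another ZNF148 summit 2 to 50 kb away. In 1044 of 1122 (93.0%) a single ZNF148 summit lay within 1000 bp, and in 999 (89.0%) the adjacent p63 peak was in turn the p63 summit nearest to its ZNF148 peak. More than 1 ZNF148 summit was found near 78 adjacent p63 peaks, and in 52 of them ZNF148 flanked p63 on both sides. The median fold of these flanked p63 peaks was 12.46 (7.87 and 22.9), against 12.4 (7.95 and 21.97) where 1 ZNF148 summit was in reach. The strongest of the 3 with 3 ZNF148 summits was on chromosome 1 at 151031157 to 151031483, with a p63 fold of 68.9 and a nearest ZNF148 fold of 25.3. The others, on chromosome 2 at 20423948 to 20424142 and chromosome 6 at 27254910 to 27255124, had p63 folds of 7.50 and 8.17.

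The reverse arrangement, 1 ZNF148 peak with several adjacent p63 peaks, was found 34 times, with p63 on both sides in 23. One ZNF148 peak, on chromosome 12 at 47071333 to 47071482 with a fold of 6.14, had 3 adjacent p63 peaks. These lay at 47070710 to 47070943 (fold 10.5), 47071032 to 47071203 (7.72) and 47072265 to 47072545 (26.8).

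In 89 pairs, or 7.93% (6.49 to 9.66%), the ZNF148 neighbour overlapped a further p63 peak, so that the adjacent peak accompanied a shared site. In the whole ZNF148 list 12.1% of peaks overlapped a p63 peak. The adjacent p63 peak had a median fold of 12.3 in these 89 pairs (7.26 and 20.2), the ZNF148 peak of 15.3 (8.94 and 31.3) and the p63 peak on it of 19.2 (10.7 and 35.3). That other p63 peak had the higher fold in 58 of the 89, and its summit was within 25 bp of the ZNF148 summit in 24. The p63 summits were a median of 582 bp apart. Among the ZNF148 neighbours, the median fold was 15.6 (8.87 and 31.4) for the 88 that carried a p63 peak and 10.0 (7.19 and 15.2) for the 999 that carried none.

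Adjacent p63 peaks had more ZNF148 peaks around them than shared or distant ones, and more of them had another p63 peak nearby. Counting ZNF148 summits more than 2 and up to 50 kb away, which leaves out the stretch used to choose them, adjacent p63 peaks had a median of 4 (1 and 7), against 1 (0 and 2) for shared and 1 (0 and 3) for distant p63 peaks. At least 1 such summit was present for 993 adjacent peaks, or 88.5% (86.5 to 90.2%), against 57.4% (56.0 to 58.8%) of shared and 69.7% (69.0 to 70.5%) of distant ones. For distant peaks the rule still bears on this count. A distant peak whose nearest ZNF148 summit lay in that range had at least 1, and one without a ZNF148 summit within 50 kb had 0. The contrast with distant peaks is thus partly set by the rule. For other p63 peaks in the same range the median was 1 in each class. Quartiles were 1 and 3 for adjacent, 0 and 1 for shared and 0 and 2 for distant p63 peaks. At least 1 other p63 peak lay there for 76.9% (74.4 to 79.3%) of adjacent, 51.2% (49.8 to 52.7%) of shared and 62.5% (61.7 to 63.2%) of distant p63 peaks.

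The same showed in stretches of 3 or more peaks of 1 protein separated by at most 12500 bp. Of the adjacent p63 peaks, 232 lay in a p63 stretch, or 20.7% (18.4 to 23.1%), against 7.76% of shared, 9.03% of distant and 9.37% of all p63 peaks. Of their ZNF148 neighbours, 488 lay in a ZNF148 stretch, or 44.9% (42.0 to 47.9%). The share was 17.01% for ZNF148 peaks that overlapped p63, 38.6% for those of neither kind and 36.2% for all ZNF148 peaks. Part of the p63 figure went with ZNF148 density. The order of adjacent and shared peaks also differed between classes of that density. Among p63 peaks with 4 to 6 ZNF148 summits 2 to 50 kb away, 23.8% (18.8 to 29.5%) of adjacent, 19.1% (15.2 to 23.7%) of shared and 15.7% (14.1 to 17.3%) of distant ones were in p63 stretches. With no such ZNF148 summit the figures were 4.65% (2.15 to 9.78%) of 129 adjacent, 1.13% of shared and 4.17% of distant peaks. In the densest classes shared peaks came first. With 7 to 10 summits the figures were 26.4% (20.5 to 33.3%) of adjacent, 29.1% (23.6 to 35.2%) of shared and 19.4% (16.9 to 22.2%) of distant peaks, and with 11 or more they were 35.4% (28.4 to 43.2%), 44.4% (38.5 to 50.5%) and 29.5% (25.3 to 34.0%) in the same order.

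The frequency of adjacent peaks was higher where more ZNF148 peaks lay around the site. Of unshared p63 peaks with no ZNF148 summit 2 to 50 kb away, 129 of 4921 were adjacent, or 2.62% (2.21 to 3.11%). The share was 4.19% with 1, 5.87% with 2 to 3, 11.004% with 4 to 6, 17.7% with 7 to 10 and 27.3% (23.8 to 31.1%) with 11 or more. Part of this climb is set by the rule. The class with no such summit holds all p63 peaks without a ZNF148 summit within 50 kb, which could be neither adjacent nor shared. In the other classes, a distant peak whose nearest ZNF148 summit lay in that range counted that summit itself. Shared peaks followed another course: 28.3% (27.2 to 29.4%) of all p63 peaks were shared where there was no ZNF148 summit in that range, 12.97% (11.7 to 14.3%) with 4 to 6 and 31.1% (28.0 to 34.3%) with 11 or more. A region rich in ZNF148 offers more neighbours at any distance, and how far this alone sets the number of adjacent peaks was not tested. The strength of adjacent p63 peaks varied little over these classes, with median folds of 12.8 in the emptiest and 10.4 in the richest, while shared p63 peaks had 28.7 and 15.8.

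Chromosomes differed in the same direction. On chromosome 22, 58 of 406 unshared p63 peaks were adjacent, or 14.3% (11.2 to 18.02%), followed by 11.9% (9.79 to 14.5%) on chromosome 17 and 10.2% (7.71 to 13.5%) on chromosome 19. The lowest portions were 3.30% (1.94 to 5.56%) on chromosome 13, 3.36% (1.78 to 6.26%) on chromosome 18 and 3.39% (2.07 to 5.52%) on chromosome X. Across the 23 chromosomes this portion was higher with more ZNF148 peaks per Mb (Pearson's r = 0.95; Spearman's rho = 0.89). The ZNF148 count includes the neighbours that made p63 peaks adjacent, so the 2 measures are not independent. Over the 21 chromosomes other than 17 and 22 Pearson's r came to 0.90. The chromosomes share 1 pair of libraries, so this is a description. Relative to shared sites the contrast was wider: chromosome 22 had 58 adjacent and 71 shared p63 peaks, and chromosome X had 15 and 270. Copy number of this tumour line was not taken into account.

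**Figure D5:**
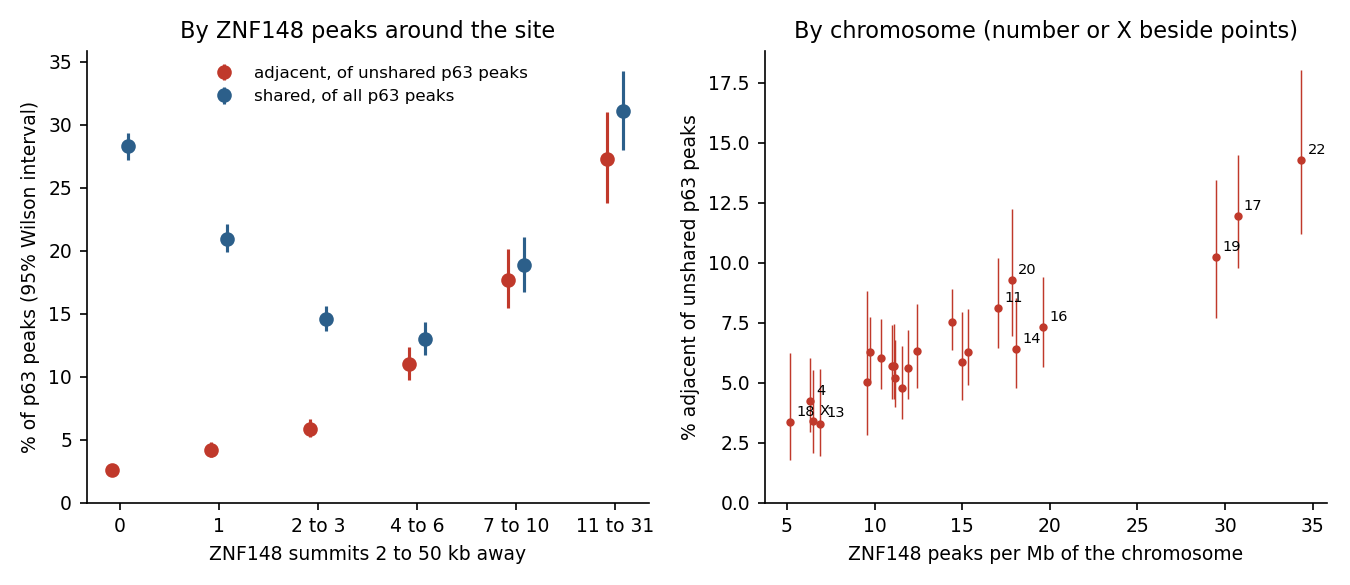
Left, the percentage of unshared p63 peaks that were adjacent (red) and of all p63 peaks that were shared (blue), with 95% Wilson intervals, by the number of ZNF148 summits 2 to 50 kb away; right, the adjacent percentage of each chromosome against its ZNF148 peaks per Mb. The red points climb from 2.62% to 27.3%, the blue ones start at 28.3% and pass through 12.97%, and chromosomes 17, 19 and 22 stand highest on the right. The first class on the left includes p63 peaks without a ZNF148 summit within 50 kb, which could be neither adjacent nor shared.

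Adjacent peaks were otherwise spread thinly. Of 2825 windows of 1 Mb with a p63 peak, 2145 held none and 430 held 1. The fullest window, on chromosome 22 from 46 to 47 Mb, held 13 adjacent peaks among 54 p63 and 130 ZNF148 peaks, and the next fullest were on chromosome 17 from 79 to 80 Mb and chromosome 9 from 140 to 141 Mb with 7 each. These windows were picked after their counts were seen.

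On either side of the 1000 bp limit the medians were as follows. The 105 adjacent peaks of the last 100 bp inside it had a p63 fold of 14.4, a p63 length of 238 bp and a ZNF148 fold of 9.94, and the 89 unshared p63 peaks of the first 100 bp outside it had 11.5, 223 bp and 10.1. The p63 fold inside was above, and that outside close to, the medians of 12.4 for all adjacent and 11.7 for all distant p63 peaks. The last pair inside, on chromosome 16 with p63 at 31464080 to 31464327, had summits exactly 1000 bp apart and folds of 18.3 and 39.0. The first outside, on chromosome 10 with p63 at 104262580 to 104262813, had summits 1001 bp apart and folds of 9.08 and 11.8.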

How the data were processed

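The submitters' processing notes name Bowtie2 2.3.4.3, MACS2 2.2.6, SAMtools 1.7 and build hg19; for their roles and settings, and for the control library, no source used here says more. Each peak carries deposited values made by the authors: its fold (a ratio to the local background), −log10 p, −log10 q and summit, read in narrowPeak column order. The deposited score was not used. Sites with a −log10 q under about 3 are in neither list (lowest values 3.16 in p63, 3.02 in ZNF148). The input library entered without a peak list used here.

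Rows with the same start and end were joined at their most significant summit. Overlap meant at least 1 shared base, the nearest ZNF148 peak was the one with the nearest summit, and p63 and ZNF148 ranks follow −log10 q within each list. Starts are printed 1-based. Calculations used Python 3.11.15, numpy 2.4.6, pandas 2.3.3, scipy 1.17.1 and matplotlib 3.10.9, and the code was tested on simulated lists. With 1 list per antibody no test was made.

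The members, the measures and the rule for named pairs were chosen with earlier results of these data known. Named were the 10 most significant adjacent p63 peaks, the 10 pairs with the best worse rank, pairs of extreme fold ratio and smallest gap with both folds of 10 or more, the ZNF148 peak with 3 adjacent p63 peaks and the peaks at the limit. The strongest ZNF148 neighbour, the smallest summit distance and the p63 peaks with 3 ZNF148 summits were added after their values were seen. Motifs, promoters and genes need hg19 sequence or annotation; the gene table at hand is GRCh38 and was not used.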

Additional observations from a re-analysis of the deposited data

Results flagged for a closer look

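Outside chromosomes 1 to 22 and X, 4 of 166 p63 peaks met the same rule. On those chromosomes it was met by 1122 of 21520, or 5.21%. The 4 are listed because a count of 0 would leave room for up to 3 and 4 is more. They show only that such pairs were present. Of the 4, 3 were on the unplaced contig gl000220, a sequence of ribosomal DNA repeats that held 31 of the 166. The p63 folds of the 4 ran from 1.72 to 7.50 and the ZNF148 folds beside them from 3.41 to 7.94.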

How the results depend on the processing

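Of 42 values recomputed under alternatives, 30 stayed inside the 95% binomial interval of the reported value, 11 moved outside it and 1 changed direction. The share of p63 peaks that were adjacent, 5.21%, was 2.203% with a limit of 500 bp, 9.03% with 2000 bp, 3.55% with a −log10 q of at least 10 in both lists and 3.39% with lists of equal length (only as many top ZNF148 peaks as p63 peaks). The median gap, 292 bp, was 106.5 bp and 623 bp with the limits of 500 and 2000 bp, which set it by construction. The median ZNF148 fold of the neighbours, 10.1, was 9.29 with 500 bp, 13.7 with the stricter q and 14.6 with equal lists. Equal lists also gave 0.407 for the adjacent over shared p63 fold (0.474 as reported), 0.982 for adjacent over distant (1.07 as reported, a change of direction) and 10.1% for neighbours on another p63 peak (7.93% as reported); the cause was not tested. Counting every summit, requiring a fold of at least 5 and merging peaks within 100 bp left each of these 6 results inside its interval. Promoter and motif alternatives were not run, since no hg19 sequence was used here. No paired analysis was possible because each antibody has 1 library and no replicate. Read depth is unknown, so weaker neighbours below the authors' threshold cannot be counted.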

Other observations

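Seen from ZNF148, 1380 of 33314 ZNF148 peaks that overlapped no p63 peak had a p63 summit within 1000 bp, or 4.14% (3.93 to 4.36%). The 999 counted above as neighbours on no p63 peak were only the nearest ZNF148 peaks of adjacent p63 peaks, whereas the 1380 are counted from any p63 summit, that of a shared peak included.

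The number of adjacent pairs did not fall evenly with distance. The classes of 100 bp that end at 700, 800 and 900 bp held 140, 105 and 141 pairs, with median p63 folds of 13.5, 10.3 and 12.97. The dip was noticed in the data and has no replicate list to be seen in again.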
